A study of Mus musculus with 4 samples.

Results

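The Hippo pathway, its coactivators YAP and TAZ and their core target genes were examined in unloaded and mechanically loaded MLO-Y4 cells through 10 genes chosen by name, as known parts of the pathway, from the 55450 genes of the count table. The members were *Yap1* and *Wwtr1*, which encode YAP and TAZ, the transcription factor genes *Tead1* and *Tead3*, the kinase genes *Lats1* and *Lats2*, the angiomotin gene *Amotl2*, and the targets *Ankrd1*, *Ccn1* (also called *Cyr61*) and *Ccn2* (also called *Ctgf*). All 10 passed the filter on low counts and were among the 16269 genes tested. The 7 regulators and the 3 targets were compared apart.

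RNA-seq was performed on MLO-Y4, an immortalized mouse osteocyte-like line described as wild type, with 2 libraries of unloaded and 2 of loaded cells. Loaded cells grew on collagen-I-coated plates with a flexible silicone base and were stretched equiaxially for 12 h at 0.5 Hz and 20% strain. Unloaded cells grew on ordinary 6-well plates that stood in the incubator of the stretching device for the same time. Both groups were kept in DMEM with fetal bovine and newborn calf serum. Since the surface differed along with the stretch, effects of the stretch and of the plate cannot be told apart. Nothing in the labels says that replicates came from separate cultures, so p-values measure only the spread between these libraries, which may be technical. Total counts were 28941994 and 30058313 in unloaded and 32185693 and 30337236 in loaded cells.

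In the Hippo pathway, upstream kinases activate LATS1 and LATS2, which phosphorylate YAP and TAZ and hold them in the cytoplasm or mark them for degradation. When LATS activity is low, YAP and TAZ enter the nucleus, bind TEAD factors and switch on genes such as *Ankrd1*, *Ccn1* and *Ccn2*. Stretch, cell spreading and a stiff surface are known to raise nuclear YAP and TAZ in many cell types, and in bone both proteins act in osteoblasts and osteocytes. Much of this control acts on protein phosphorylation and location, which RNA-seq does not measure.

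The cell type label was compared with marker genes. Of the osteocyte markers, *Pdpn*, an early osteocyte membrane protein, had 143.0 and 151 CPM (read counts scaled to library size by the TMM method) in unloaded and 215 and 228 CPM in loaded cells (log2 fold change 0.59, edgeR adjusted p = 0.0334, DESeq2 adjusted p = 2.20e-08). Its edgeR adjusted p was 0.081 with the replicate block and 0.0675 without the filter. *Phex*, a phosphate-regulating peptidase of osteocytes, had 43.7 and 43.8 CPM in unloaded and 47.5 and 55.8 CPM in loaded cells, with separated groups. *Cd44* was the most abundant marker with a mean of 685 CPM. *Gja1* ranged from 485 to 584 CPM, but the other osteocyte markers were at or near 0. *Dmp1* had 12 to 14 counts per library and *Mepe* had 0 in all 4. *Sost* had 4 counts in loaded replicate 1 and 0 in the other libraries. *Fgf23* had 4 and 9 counts in unloaded and 0 in loaded cells. The 8 osteocyte markers summed to 1342 and 1371 CPM in unloaded and 1501 and 1518 CPM in loaded cells, and the 9 osteoblast markers to 2956 and 2882 against 2558 and 2744 CPM, with *Col1a2* the most abundant and *Ibsp* at 0. *Spp1*, the osteopontin gene, was among them, with 409 and 405 CPM in unloaded and 273 and 301 CPM in loaded cells (log2 fold change −0.50, edgeR adjusted p = 0.0405, DESeq2 adjusted p = 9.43e-07). Its edgeR adjusted p was 0.111 with the replicate block and 0.0826 without the filter. Of the 6 tested osteoblast markers, the groups were separated downward in 2 and upward in 1, *Runx2* (49.2 and 48.5 against 56.4 and 53.25 CPM). Among the other osteoblast markers, *Bglap* had at most 4 counts per library, *Bglap2* 8, *Alpl* 14 and *Sp7* 25. The line thus expressed part of both marker lists, while other markers of both were at or near 0.

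Of the markers of other cell types, *Csf1r*, *Cd14* and *Sox9* had more than 10 CPM and the others at most 2.1 CPM. The 8 haematopoietic markers summed to 1628 and 1640 CPM in unloaded and 1601 and 1607 CPM in loaded cells, almost all of it from *Csf1r* (mean 1569 CPM). *Cd14* had 52.5 and 54.7 CPM in unloaded and 41.6 and 44.0 CPM in loaded cells, lower in both loaded libraries (log2 fold change −0.33, edgeR adjusted p = 0.204). The leukocyte marker *Ptprc* reached 3 counts in 1 library and *Cd3e* had none. The 5 endothelial markers summed to 3.37 and 2.18 CPM against 2.91 and 1.71 CPM, with *Cdh5* the most abundant and *Emcn* at 0, and *Kdr* had 0 and 0 counts in unloaded but 17 and 14 in loaded cells. The 5 epithelial markers stayed under 0.80 CPM in sum in each library (0.792, 0.165, 0.403 and 0.604 CPM), with *Krt8* the most abundant and *Epcam*, *Krt18* and *Krt5* at 0. The 5 chondrocyte markers summed to 17.8 and 18.6 CPM in unloaded and 20.2 and 21.1 CPM in loaded cells, nearly all from *Sox9*, with *Acan* at 0. The part of these shifts in the results below was not tested.

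The targets were the most abundant members. Per kilobase of annotated exon, which allows levels to be compared between genes, *Ankrd1* had a mean of 219 CPM per kb over the 4 libraries, *Ccn1* 113 and *Ccn2* 88.6 CPM per kb, each above at least 96.9% of tested genes on this scale. *Amotl2* followed at 41.2, *Wwtr1* at 26.4 and *Lats1* at 21.5 CPM per kb. The lower members were *Lats2* at 7.54, *Tead1* at 3.60, *Tead3* at 1.28 and *Yap1* at 0.975 CPM per kb, against a median of 4.90 CPM per kb over all tested genes. The ranges of neighbours in this order over the 4 libraries were apart, except that those of *Lats2* and *Tead1* overlapped (6.31 to 9.24 and 2.11 to 7.64 CPM per kb), as did those of *Tead3* and *Yap1* (1.02 to 1.62 and 0.877 to 1.09 CPM per kb). With the length of the longest transcript in place of all annotated exons, a choice made after the data were seen, the order was the same, but the ranges of *Ccn1* and *Ccn2* overlapped (97.5 to 129 and 92.9 to 111 CPM per kb), as did those of *Tead1* and *Tead3* (2.88 to 10.4 and 1.99 to 3.16 CPM per kb), and those of *Tead3* and *Yap1* did not (1.99 to 3.16 and 1.54 to 1.92 CPM per kb).

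**Figure D1:**
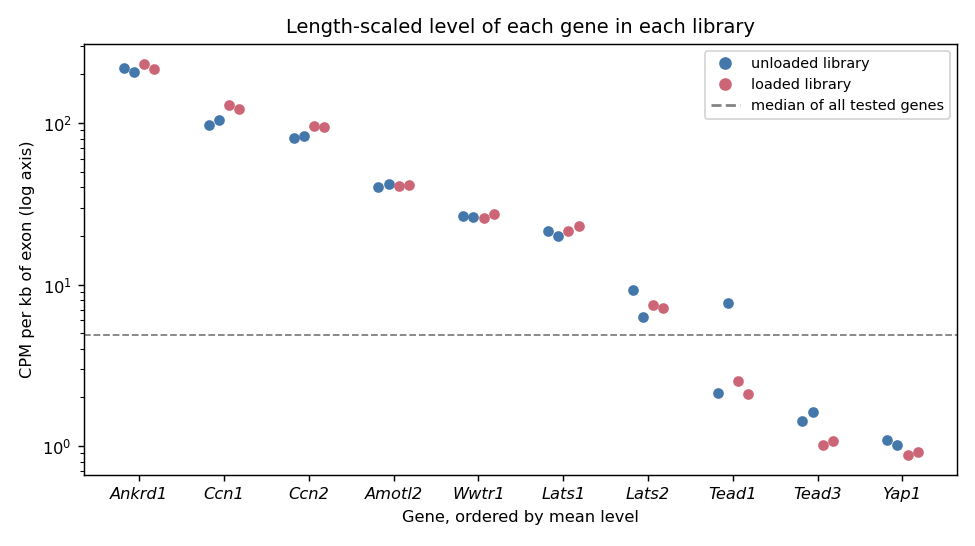
CPM per kb of exon (log axis) of the 10 members in each library, unloaded in blue and loaded in red, with genes ordered by their mean over the 4 libraries and the median of all tested genes as a dashed line. *Ankrd1*, *Ccn1* and *Ccn2* lie at the top, *Yap1* at the bottom, and 1 unloaded library of *Tead1* stands above its other 3 libraries.

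None of the 10 members passed an adjusted p of 0.01 in edgeR's quasi-likelihood test, which called 16 of 16269 genes (0.0983%), and none passed 0.05, a threshold met by 147 genes (0.904%). DESeq2 called 1 member, *Ccn1*, at an adjusted p of 0.01, against 363 of 12484 genes with an adjusted p (2.91%). Both shares depended on the fit: edgeR called 0 genes with the replicate block, and both counts moved with a library left out. At an unadjusted p of 0.05 in edgeR, 3 members passed, *Ccn1* and *Ccn2* with higher and *Tead3* with lower values in loaded cells, against 14.3% of all tested genes. In 2 of the 10 members both loaded libraries lay above both unloaded libraries (22.1% of all tested genes), and in 2 others both lay below (24.5%). The share of members with separated groups, 4 of 10, was therefore near that of all genes. The RNA came from whole cultures, so fewer cells of a type and less RNA per cell cannot be told apart.

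**Figure D2:**
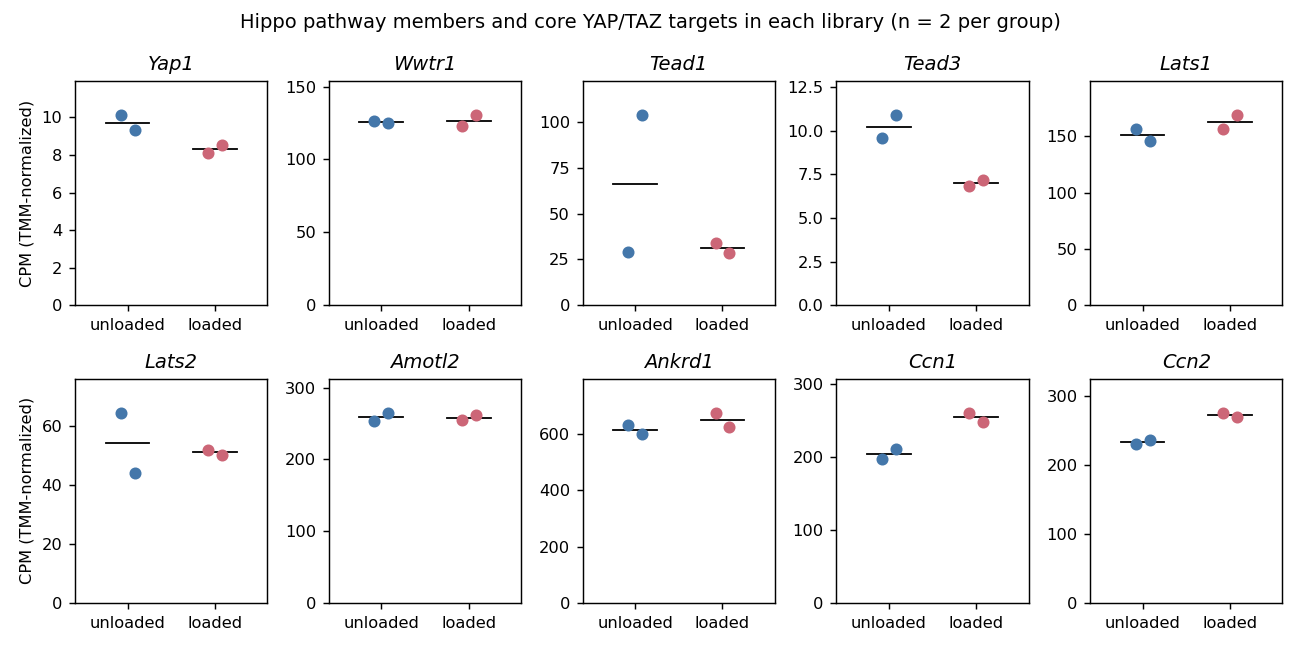
TMM-normalized CPM of each member in the 2 unloaded (blue) and 2 loaded (red) libraries, with a bar at the mean of each group and every axis starting at 0. Loaded libraries lie above unloaded ones for *Ccn1* and *Ccn2* and below them for *Yap1* and *Tead3*, while the groups overlap for the other 6 genes.

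Of the targets, *Ccn1* encodes a secreted matrix protein of the CCN family that binds integrins and lies at chr3:145646976-145649981 on the minus strand (GRCm38). It had 197 and 211 CPM in unloaded and 260.0 and 248 CPM in loaded cells. Both loaded libraries were above both unloaded libraries, and the gap between groups was wider than that between replicates. The log2 fold change was 0.32 (SE 0.0687, 95% confidence interval 0.15 to 0.48), a 1.25-fold difference that ranked 436 of 16269 genes by p (unadjusted p = 0.00347) with an edgeR adjusted p of 0.129. DESeq2 gave a log2 fold change of 0.32 and an adjusted p of 0.009999, just inside the threshold of 0.01, while the adjusted p over the other alternatives reached 0.372. With any 1 library left out, DESeq2 no longer called *Ccn1* (adjusted p from 0.0923 to 0.522), though the direction was kept.

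*Ccn2*, which encodes connective tissue growth factor, lies at chr10:24595442-24598683 on the plus strand. It had 231 and 237 CPM in unloaded and 276 and 269 CPM in loaded cells. The groups did not overlap here either, and each pair of replicates differed by less than the groups did. The log2 fold change of 0.22 (SE 0.0597, interval 0.07 to 0.36) corresponded to 1.16-fold and did not pass the threshold (edgeR adjusted p = 0.184, DESeq2 adjusted p = 0.106). *Ccn2* shares 665 bp of exon with the antisense gene *Gm15270*, which had 27 to 47 counts per library, against 6717 to 8897 counts for *Ccn2*.

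*Ankrd1*, the gene of a cardiac ankyrin repeat protein that is a common readout of YAP activity, lies at chr19:36111961-36120099 on the minus strand. It had 630.2 and 600.4 CPM in unloaded and 675 and 626 CPM in loaded cells. The groups overlapped, since loaded replicate 2 fell between the unloaded replicates. The log2 fold change was 0.08 (SE 0.0628, interval −0.07 to 0.23, edgeR adjusted p = 0.624), and it ranged from 0.03 without loaded replicate 1 to 0.13 without loaded replicate 2. The ratio of *Ccn2* to *Ccn1* per kb was 0.829 and 0.792 in unloaded and 0.748 and 0.766 in loaded cells. It was lower in both loaded libraries, and an exact permutation test of 2 against 2 libraries cannot give a p below 0.33.

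All 3 targets had a positive log2 fold change, with a median of 0.22, against 48.5% positive and a median of −0.01 over all tested genes. Taken with *Lats2* and *Amotl2*, which are regulators that YAP and TAZ also induce, 3 of 5 were positive and the median was 0.08. The median over the 7 regulators was −0.09, with 2 positive and 5 negative. It was 0.00121 without unloaded replicate 2, −0.0290 without unloaded replicate 1 and −0.0612 without loaded replicate 2, so its sign turned with 1 library. These lists are short and their members were chosen with earlier results known, so the counts are a description.

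**Figure D3:**
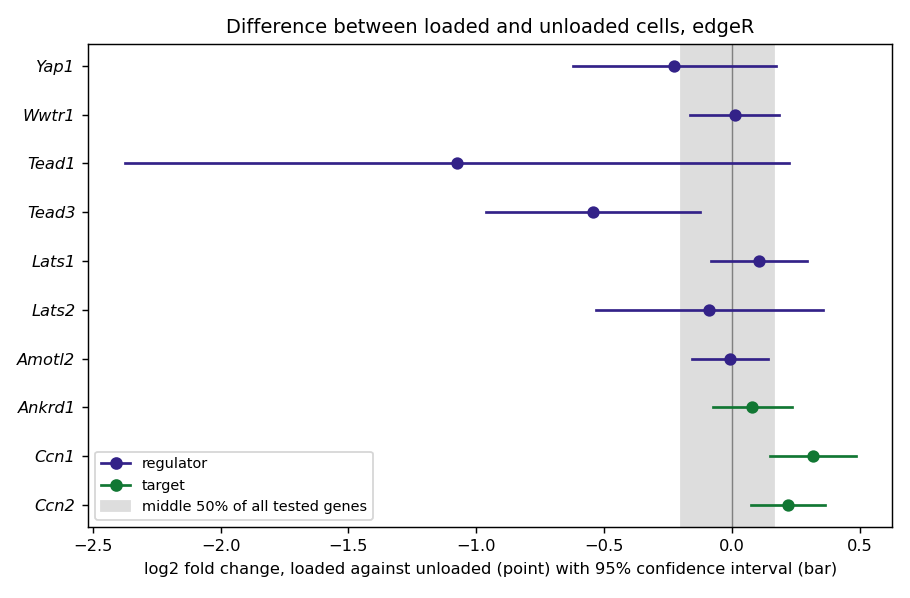
Log2 fold change (loaded against unloaded, edgeR) of each member as a point with its 95% confidence interval as a bar, for regulators (blue) and targets (green), over the middle 50% of all tested genes in grey (−0.20 to 0.16). The intervals of *Ccn1* and *Ccn2* lie above 0 and that of *Tead3* below it, and the other 7 include 0.

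The coactivator genes differed widely in level and little between groups. *Wwtr1*, the gene of TAZ (chr3:57455649-57575910, minus strand), had 126 and 125 CPM in unloaded and 123 and 130.3 CPM in loaded cells. The loaded libraries lay on either side of the unloaded pair. The log2 fold change was 0.01 (SE 0.0716, interval −0.16 to 0.19, edgeR adjusted p = 0.968), and its sign turned to −0.03 without loaded replicate 2. *Yap1* (chr9:7931999-8004596, minus strand) had 10.1 and 9.34 CPM in unloaded and 8.12 and 8.52 CPM in loaded cells. Both loaded libraries were lower, by little more than the replicates differed. With 254 to 294 counts per library its log2 fold change of −0.23 (SE 0.163, interval −0.62 to 0.17) was not distinguishable from 0 (edgeR adjusted p = 0.589).

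Scaled to exon length, *Wwtr1* exceeded *Yap1* by 24.2-fold and 25.9-fold in unloaded and by 29.3-fold and 29.6-fold in loaded cells. *Wwtr1* thus made up 96.0% to 96.7% of the summed coactivator level in each library. The size of this ratio depends on the length used, since the annotated exons of *Yap1* cover 9257 bp over 10 transcripts and its longest transcript 5282 bp. With the longest transcripts the mean log2 ratio was 3.98 in place of 4.76. The summed level of both genes was 27.6 and 27.1 CPM per kb in unloaded and 26.6 and 28.2 CPM per kb in loaded cells, with overlapping groups.

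TEAD factors are the DNA-binding partners of YAP and TAZ. *Tead1* (chr7:112679318-112906807, plus strand) had 28.8 and 104 CPM in unloaded and 34.2 and 28.7 CPM in loaded cells. Unloaded replicate 2 stood apart from the other 3 libraries, which were alike, and the unloaded replicates differed 3.59-fold. Unloaded replicates were over 3-fold apart in 31 of 9684 tested genes of at least 10 CPM (0.32%). The log2 fold change of −1.08 (SE 0.532, interval −2.38 to 0.22, edgeR adjusted p = 0.428) rested on that library: without unloaded replicate 2 it was 0.12 (edgeR adjusted p = 0.841), and without unloaded replicate 1 it was −1.72, past the threshold (edgeR adjusted p = 0.00451). The direction for *Tead1* is therefore not fixed by these data.

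*Tead3* (chr17:28331671-28350817, minus strand) had 9.57 and 10.9 CPM in unloaded and 6.85 and 7.18 CPM in loaded cells. Both loaded libraries were below both unloaded libraries. The log2 fold change was −0.54 (SE 0.172, interval −0.96 to −0.13), with an unadjusted p of 0.0189 and an adjusted p of 0.237 in edgeR. From the wider list, *Tead4* had 17.5 and 19.7 CPM in unloaded and 23.1 and 26.4 CPM in loaded cells, and *Tead2* had 2.17 and 2.24 against 3.38 and 3.15 CPM. Both were higher in each loaded library, with log2 fold changes of 0.41 (edgeR adjusted p = 0.239) and 0.56 (edgeR adjusted p = 0.405).

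Per kb of exon, *Tead4* made up 54.8% of the summed TEAD level in unloaded replicate 1, 60.2% in loaded replicate 1 and 65.7% in loaded replicate 2, but 36.0% in unloaded replicate 2, where *Tead1* held 50.3%. The share of *Tead3* was 16.1% and 10.7% in unloaded and 9.58% and 9.57% in loaded cells. The TEAD shares depend on the length used. The annotated exons of *Tead3* cover 6714 bp and its longest transcript 3443 bp, against 13570 and 9964 bp for *Tead1*. Shares by the longest transcripts were not computed. The summed level of the 4 genes was 8.87 and 15.2 CPM per kb in unloaded and 10.7 and 11.2 CPM per kb in loaded cells. The groups overlapped because of the *Tead1* value in unloaded replicate 2. The ratio of *Tead3* to *Tead1* ranged from 0.212 in that library to 0.671 in unloaded replicate 1, with 0.405 and 0.506 in loaded cells between them.

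**Figure D4:**
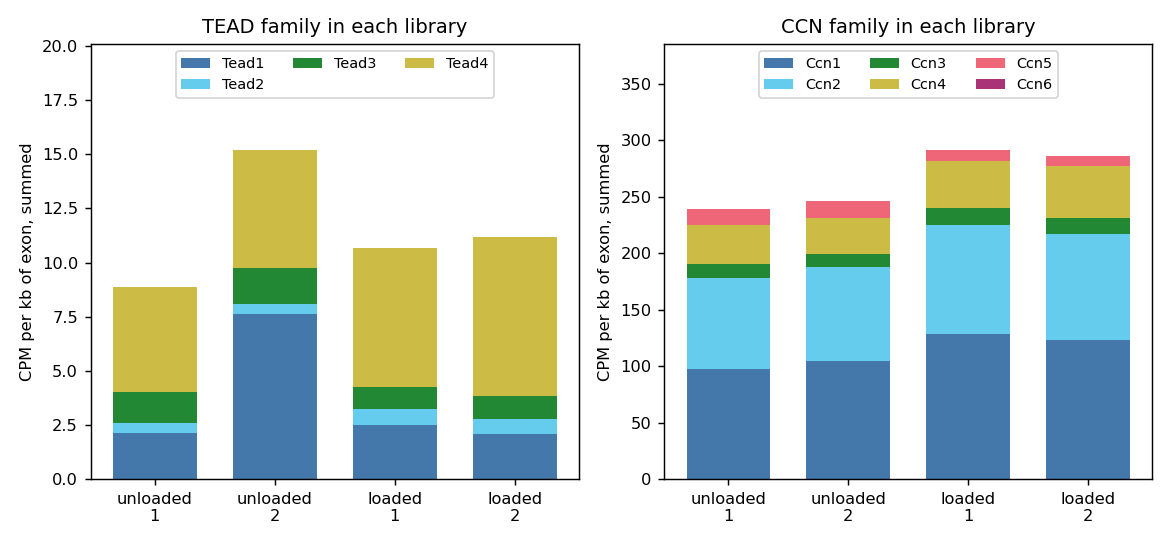
Stacked CPM per kb of exon of the 4 TEAD genes (left) and the 6 CCN genes (right) in each of the 4 libraries, with axes from 0. *Tead1* makes up 50.3% of the bar of unloaded replicate 2, and the CCN sum is higher in both loaded libraries.

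The LATS kinases phosphorylate YAP and TAZ. *Lats1* (chr10:7681214-7716460, plus strand) had 157 and 145 CPM in unloaded and 157 and 169 CPM in loaded cells. The groups overlapped, and the log2 fold change was 0.11 (SE 0.0771, interval −0.08 to 0.29, edgeR adjusted p = 0.592). It was 0.0525 without unloaded replicate 2, 0.0518 without loaded replicate 2 and 0.17 without unloaded replicate 1. *Lats2* (chr14:57689662-57758388, minus strand) had 64.4 and 44.0 CPM in unloaded and 52.0 and 50.03 CPM in loaded cells. Both loaded values lay between the unloaded replicates, which differed 1.46-fold. Its log2 fold change of −0.09 (SE 0.181, interval −0.53 to 0.35, edgeR adjusted p = 0.880) became 0.22 without unloaded replicate 1, so no direction can be given. *Lats2* shares 2955 bp of same-strand exon with *Gm49361*, to which 3 counts were assigned in 1 library and none in the others. Per kb, *Lats2* reached 0.430 and 0.317 of *Lats1* in unloaded and 0.347 and 0.311 in loaded cells, again overlapping.

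Angiomotins bind YAP and TAZ at junctions and actin and favour their phosphorylation. *Amotl2* (chr9:102716672-102733418, plus strand) had 254 and 265 CPM in unloaded and 255 and 262 CPM in loaded cells. The loaded values fell inside the unloaded pair. With a log2 fold change of −0.01 (SE 0.0613, interval −0.16 to 0.14, edgeR adjusted p = 0.974), whose sign changed with DESeq2, RLE factors and without unloaded replicate 2 or loaded replicate 1, it was among the members with the narrowest intervals around 0. Its relative *Amotl1*, from the wider list, had 244 and 244 CPM in unloaded and 199 and 209 CPM in loaded cells. Both loaded libraries were lower (log2 fold change −0.26, edgeR adjusted p = 0.149, DESeq2 adjusted p = 0.0657). *Amotl1* held 34.1% and 33.3% of the summed angiomotin level per kb in unloaded and 29.4% and 29.9% in loaded cells.

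Sequences before the start sites are shown for *Ankrd1*, *Ccn1*, *Amotl2* and *Lats2*, the members with an entry that YAP and TAZ are known to induce. RefSeq (GRCm38.p6) gave promoters for 8 of the 10 members in 12 windows of 250 bases before a start, some of them overlapping within a gene. *Tead1* and *Ccn2* had no entry. Each is written 5′ to 3′ on the gene's strand, with the TEAD motif GGAATG, or CATTCC where it lies on the other strand, in capitals. The windows are chr19:36119845-36120094 (minus strand) for *Ankrd1*, chr3:145649986-145650235 (minus strand) for *Ccn1*, chr9:102717554-102717803 (plus strand) for *Amotl2* and chr14:57746124-57746373 (minus strand) for *Lats2*, whose 2 windows both lacked the motif.
Ankrd1: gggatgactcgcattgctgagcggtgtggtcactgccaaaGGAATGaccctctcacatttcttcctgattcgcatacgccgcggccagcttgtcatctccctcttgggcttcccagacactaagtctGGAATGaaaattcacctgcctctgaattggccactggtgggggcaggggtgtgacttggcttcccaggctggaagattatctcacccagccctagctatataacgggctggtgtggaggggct
Ccn1: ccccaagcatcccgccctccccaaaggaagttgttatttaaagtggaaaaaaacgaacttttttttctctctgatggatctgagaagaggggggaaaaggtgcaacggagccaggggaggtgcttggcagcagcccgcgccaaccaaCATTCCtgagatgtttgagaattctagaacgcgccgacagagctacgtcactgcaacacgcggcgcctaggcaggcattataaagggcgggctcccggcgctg
Amotl2: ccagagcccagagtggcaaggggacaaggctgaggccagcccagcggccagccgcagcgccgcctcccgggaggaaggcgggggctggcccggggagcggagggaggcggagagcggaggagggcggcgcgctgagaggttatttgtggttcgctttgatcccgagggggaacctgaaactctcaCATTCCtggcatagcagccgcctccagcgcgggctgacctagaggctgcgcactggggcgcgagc
Lats2: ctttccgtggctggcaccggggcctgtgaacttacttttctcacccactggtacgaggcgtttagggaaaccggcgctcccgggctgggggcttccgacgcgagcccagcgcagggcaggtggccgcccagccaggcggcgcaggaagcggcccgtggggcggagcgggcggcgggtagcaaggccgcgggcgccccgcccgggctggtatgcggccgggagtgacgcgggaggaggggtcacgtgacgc

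The match began at −210 and −123 relative to the start in *Ankrd1*, at −103 in *Ccn1* and at −65 in *Amotl2*. GGAATG, searched on both strands, was found in 8 of the 12 windows, against 12.6% of 32851 mouse promoter windows of the same length. The 8 windows came from 6 genes (*Yap1*, *Wwtr1*, *Tead3*, *Amotl2*, *Ankrd1* and *Ccn1*). The 2 *Wwtr1* windows overlap and hold the same match, at −136 in 1 and −170 in the other, so it counts in both. The AP-1 motif TGANTCA was in 0 of 12 windows (6.75% of all) and the CArG box in 0 of 12 (1.47% of all). *Ankrd1* and *Ccn1* thus shared the motif while their log2 fold changes were 0.08 and 0.32. A match is a description, not a site or a cause, and a missing match says only that these letters are not in the window.

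The wider Hippo pathway was described through 51 further genes, of which 46 were tested. None passed an adjusted p of 0.01 in edgeR, 1 passed it in DESeq2 (2.91% of all genes), and at an unadjusted p of 0.05 in edgeR 7 were higher and 1 lower in loaded cells (14.3% of all tested genes in either direction). Of the 46, 30 had a positive log2 fold change (65.2%, against 48.5% of all tested genes). The median was 0.04, or 0.0846 without loaded replicate 1. The groups were separated upward in 18 and downward in 7, against 22.1% and 24.5% of all tested genes. The gene called by DESeq2 was *Wwc1*, which encodes KIBRA, a scaffold that promotes LATS activation. It had 85.9 and 82.9 CPM in unloaded and 139 and 127 CPM in loaded cells. Both loaded libraries were clearly above both unloaded libraries, with a log2 fold change of 0.65 (SE 0.0822, edgeR adjusted p = 0.0370, DESeq2 adjusted p = 1.34e-07). DESeq2 still called *Wwc1* with any 1 library left out (highest adjusted p 0.00671). In edgeR, its adjusted p was 0.0816 with the replicate block, 0.0726 without the filter and 0.0702 to 0.120 with a library left out.

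Among 20 tested scaffolds and junction proteins, 14 had a positive log2 fold change and the median was 0.13. *Ptpn21*, a tyrosine phosphatase with a FERM domain, had 64.3 and 61.2 CPM in unloaded and 74.3 and 82.8 CPM in loaded cells (log2 fold change 0.32, edgeR adjusted p = 0.220). The most abundant scaffold, the protocadherin *Fat1*, had 752 and 676 CPM against 741 and 777 CPM, with overlapping groups. *Mob1a*, named after its values were seen, encodes a LATS cofactor and had 64.2 CPM in unloaded replicate 1 but 241, 235 and 254 CPM in the other libraries. As with *Tead1*, a single unloaded library stood apart.

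The 13 tested kinases, which act upstream of LATS or, for *Stk38* and *Stk38l*, belong to the related NDR group, had a median log2 fold change of 0.02, with 8 positive and 5 negative. *Stk38l* had 46.2 and 42.8 CPM in unloaded and 53.1 and 54.4 CPM in loaded cells (log2 fold change 0.27, edgeR adjusted p = 0.286). Its relative *Stk38* had 54.3 and 61.9 CPM against 47.8 and 51.2 CPM (log2 fold change −0.23, or −0.14 without unloaded replicate 2, edgeR adjusted p = 0.403). These paralogs thus lay on opposite sides of 0 without passing the threshold. *Stk3*, which encodes the Hippo kinase MST2, had 103 and 77.8 CPM against 75.5 and 83.7 CPM, with overlapping groups. The most abundant kinase, *Map4k4*, had 480 and 464 CPM in unloaded and 486 and 505 CPM in loaded cells. It was higher in both loaded libraries without passing the threshold (log2 fold change 0.07, edgeR adjusted p = 0.636).

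Of the 10 genes for retention and degradation of YAP and TAZ, 6 had a positive log2 fold change and the median was 0.02. *Ywhag*, a 14-3-3 protein gene whose family holds phosphorylated YAP in the cytoplasm, had 394 and 386 CPM in unloaded and 440.1 and 470 CPM in loaded cells (log2 fold change 0.22, edgeR adjusted p = 0.187). *Ywhaz*, the most abundant of them, had 892 and 864 CPM against 952 and 990.2 CPM (log2 fold change 0.14, edgeR adjusted p = 0.301), and *Ywhah* had 268 and 278 against 289 and 298 CPM. These 3, named for the smallest p of the list, were higher in both loaded libraries and none passed the threshold. Of the other 14-3-3 genes, *Ywhab* was also higher in both loaded libraries, the groups overlapped for *Ywhae* and *Ywhaq*, and *Sfn*, with at most 24 counts, was lower in both. Among VGLL cofactors, which compete with YAP for TEAD, *Vgll4* ranged from 96.1 to 113 CPM with overlapping groups, and *Vgll1*, *Vgll2* and *Vgll3* were not tested for lack of counts, as were *Tnik* and *Wtip*.

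The wider YAP and TAZ target list, a set known from human cancers, held 17 genes besides the members, of which 15 were tested. No gene passed an adjusted p of 0.01 in edgeR or DESeq2, and 2 passed an unadjusted p of 0.05 in edgeR (14.3% of all tested genes). Of the 15, 10 were positive (66.7%, against 48.5% of all tested genes) and the median was 0.06, which became 0.0160 without unloaded replicate 2, 0.00465 without loaded replicate 2 and 0.102 without unloaded replicate 1. The groups were separated upward in 5 and downward in 3 of the 15, against 22.1% and 24.5% of all tested genes. *Foxf2*, a forkhead factor gene, had 20.5 and 20.1 CPM in unloaded and 30.4 and 28.1 CPM in loaded cells. Its log2 fold change was 0.53 (SE 0.107, edgeR adjusted p = 0.113, DESeq2 adjusted p = 0.0552). *Crim1*, which encodes a membrane regulator of BMPs, had 127 and 126 against 139 and 156 CPM (log2 fold change 0.22, or 0.14 without loaded replicate 2, edgeR adjusted p = 0.302). *F3*, the tissue factor gene, had 3.37 and 4.52 against 7.69 and 5.13 CPM (log2 fold change 0.70, or 0.38 without loaded replicate 1, edgeR adjusted p = 0.350). These 3, named for the smallest p of the list, were higher in both loaded libraries, whereas the most abundant target, *Myof*, a membrane repair gene, had 1497 and 1465 CPM in unloaded and 1381 and 1445 CPM in loaded cells. *Igfbp3* and *Rbms3* were not tested.

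**Figure D5:**
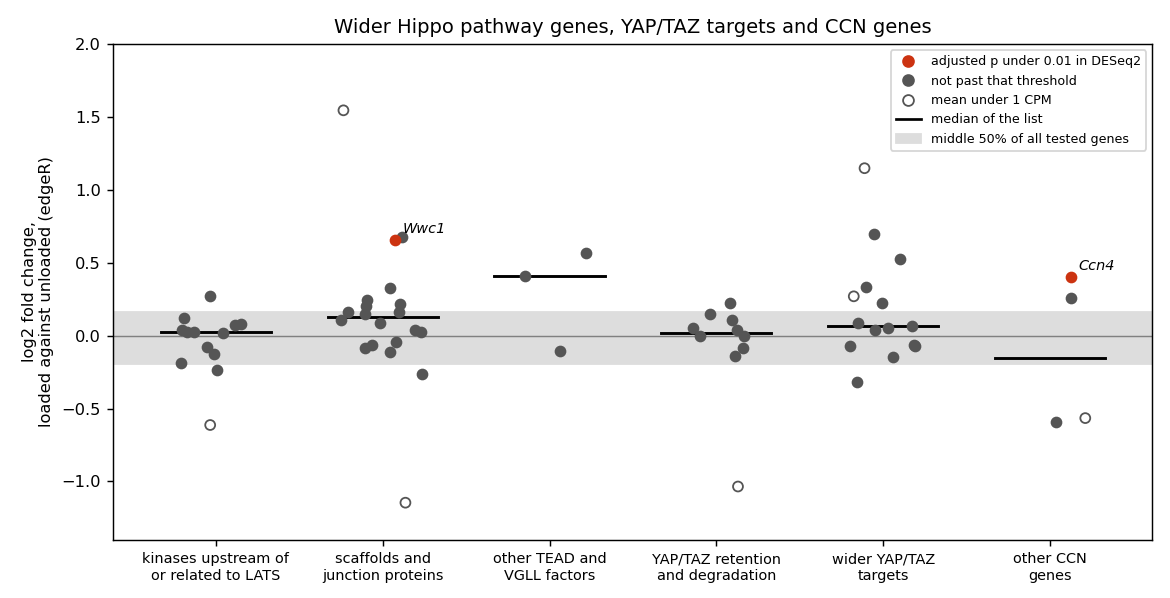
Log2 fold change (loaded against unloaded, edgeR) of each tested gene in the wider lists as a point, with the median of each list as a black line and the middle 50% of all tested genes in grey. *Wwc1* and *Ccn4*, in red, are the genes past an adjusted p of 0.01 in DESeq2, and open points have a mean under 1 CPM.

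Of the 4 other CCN genes, none passed an adjusted p of 0.01 in edgeR and 1 passed it in DESeq2 (2.91% of all genes). The groups were separated upward in 2 and downward in 1, against 22.1% and 24.5% of all tested genes. *Ccn4*, also called *Wisp1*, had 194 and 175 CPM in unloaded and 232 and 256 CPM in loaded cells. Both loaded libraries were higher (log2 fold change 0.40, SE 0.0836, edgeR adjusted p = 0.120, DESeq2 adjusted p = 0.00140), and DESeq2 no longer called it with any 1 library left out (adjusted p from 0.0120 to 0.309). *Ccn5*, which lacks the C-terminal domain of its relatives, had 26.7 and 29.9 against 19.1 and 18.3 CPM (log2 fold change −0.59, edgeR adjusted p = 0.102, DESeq2 adjusted p = 0.0356). *Ccn3* had 35.0 and 33.8 against 42.1 and 40.0 CPM (log2 fold change 0.25, edgeR adjusted p = 0.311). *Ccn5* was thus lower and *Ccn1*, *Ccn2*, *Ccn3* and *Ccn4* higher in both loaded libraries, and *Ccn6* had at most 14 counts. The summed CCN level was 240 and 247 CPM per kb in unloaded and 292 and 287 CPM per kb in loaded cells, of which *Ccn1* made up 40.7% to 44.1% and *Ccn2* 32.9% to 33.7%.

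*Actb*, used as a control gene, had 1396 and 1235 CPM in unloaded and 1234 and 1462 CPM in loaded cells. The groups overlapped (log2 fold change 0.03, edgeR adjusted p = 0.914), and the sign changed without unloaded replicate 2 or loaded replicate 2.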

How the data were processed

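Gene counts deposited by the authors were analysed for 2 unloaded and 2 loaded libraries, grouped by their titles. The authors depleted ribosomal RNA, aligned reads to mm10 with HISAT2 2.1.0, assembled transcripts with StringTie 1.3.5 and converted coverage to whole-number counts. A gene's count may therefore depend on the assembly, which was not tested. Strandedness is not given in the sources used here. All 55450 identifiers matched GENCODE M21 (GRCm38), which gave symbols, coordinates and exon lengths.

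Genes were filtered with filterByExpr (minimum count 10), normalized by TMM and compared by the quasi-likelihood F test of edgeR 4.0.16 in R 4.3.3. P-values were adjusted over 16269 genes by the Benjamini-Hochberg method, with a threshold of 0.01. DESeq2 1.42.0 served as a second call rule, since the study used DESeq2. The standard error is the size of the log2 fold change over the square root of F. Depth ranged from 28941994 to 32185693 counts. A floor of 3 counts equals 0.0930 to 0.103 CPM and covers counting error only, while the intervals rest on the spread between libraries. Replicates differed by a median of 1.07-fold in unloaded and 1.08-fold in loaded cells among genes of at least 10 CPM, and no 2 libraries were identical.

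Alternatives were limma-voom (limma 3.58.1), RLE and upper-quartile factors, no filter, a minimum of 10 counts per library, a block for the replicate number, an adjusted p under 0.05 and leaving out each library. Gene length by the longest transcript and DESeq2 without each library were chosen after seeing the data. The procedure was tested on simulated data. Named genes are all 10 members, *Actb* and, from each wider list, genes with an adjusted p under 0.01 in edgeR or DESeq2, the 3 genes with the smallest edgeR p and the most abundant gene. Marker genes are given as levels, with tests for *Pdpn*, *Spp1* and *Cd14*, named after their values were seen. The members and lists were chosen with earlier results of these data known.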

Additional observations from a re-analysis of the deposited data

How the results depend on the processing

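Each of the 10 members was refitted under 11 alternatives. Of these 110 results, 101 kept the direction and the side of the threshold, 7 changed sign and 2 passed the threshold. The sign changes were in *Amotl2* (log2 fold change 0.00034 with DESeq2, 0.0019 with RLE factors, −0.0290 to 0.0227 with a library left out) and, with a library left out, in *Wwtr1* (−0.0312 to 0.0513), *Tead1* (−1.72 to 0.12) and *Lats2* (−0.34 to 0.22). The results that passed were *Ccn1* with DESeq2 (log2 fold change 0.32, adjusted p = 0.009999) and *Tead1* without unloaded replicate 1. Of the other named genes, *Stk3* (−0.377 to 0.0409) and *Actb* (−0.0926 to 0.152) changed sign with a library left out. With a library left out, the lone library of a group is assumed to vary like the other group.

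The number of genes called was 16 in edgeR, 363 with DESeq2, 29 with at least 10 counts in every library, 147 at an adjusted p under 0.05, 0 in edgeR without the filter (2435 at an unadjusted p under 0.05) and 0 to 43 in edgeR with a library left out (1788 to 2128 at an unadjusted p under 0.05). DESeq2 called 165 to 216 genes with a library left out, and 1 member (*Tead1*) without unloaded replicate 1. With the replicate block, edgeR called 0 genes (1839 at an unadjusted p under 0.05). Deviations of libraries with the same number correlated at −0.07, so no shared shift was seen. With 2 libraries per group this value cannot show whether libraries with the same number were handled as pairs. Members called were 0 in edgeR, 1 with DESeq2 and 0 to 1 with a library left out.

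The median of the regulators was −0.0585 with limma-voom, −0.0636 with the replicate block and −0.115 to 0.00121 with a library left out. Medians with a library left out were 0.0427 to 0.0846 for the wider Hippo list and 0.00465 to 0.102 for the wider targets. With the longest transcripts, mean log2 ratios were 3.98 for *Wwtr1* to *Yap1*, −1.11 for *Lats2* to *Lats1*, −0.76 for *Tead3* to *Tead1* (−1.27 with all exons) and −0.15 for *Ccn2* to *Ccn1*. No scaling moved the median of all genes by more than 0.1. The causes of these changes were not tested. With 2 libraries per group, differences of the size seen for *Yap1* at 254 to 294 counts were not resolved.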
